A study of Mus musculus with 3 samples.

Results

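Mast cells and basophils were described in 3 single-cell RNA libraries of mouse femoral artery. Per the labels, the libraries were named Sham, D2 and D7. All came from WT male mice aged 8 weeks, operated by sham surgery or by wire injury of the artery, and injured arteries were taken 2 days (D2) or 7 days (D7) after the injury. Each library, made with a droplet kit that reads the 3′ end of transcripts, held live singlets sorted with the dye DAPI from a pool of 6 mice, so each group had 1 library and no comparison between groups could be tested. Members were selected on their own measured values, in UMIs (counted molecules). A kept barcode had at least 300 genes and at most 15% mitochondrial UMIs. A member had a UMI of at least 2 of 7 genes (Cpa3, Mcpt4, Cma1, Tpsb2, Mcpt8, Ms4a2, Fcer1a) and at most 1 UMI each of Csf1r, Cd3e, Cd79a and Col1a2. It was called a mast cell when its Mcpt4, Cma1 and Tpsb2 UMIs outnumbered its Mcpt8 UMIs, a basophil when Mcpt8 outnumbered them, and undecided when the sums were equal. Of 30135 kept cells, 115 were members, namely 80 mast cells, 23 basophils and 12 undecided cells.

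As background, mast cells settle in tissue as progenitors, mature there under the growth factor that acts on the receptor Kit, and store proteases and histamine on heparin-type chains in granules. In connective tissue of the mouse the stored proteases include the chymases Mcpt4 and Cma1, the tryptases Tpsb2 and Tpsab1 and the carboxypeptidase Cpa3. Basophils circulate, leave marrow as mature cells, carry the same high-affinity receptor for IgE (Fcer1a and Ms4a2 encode chains of it) and, in the mouse, make the protease Mcpt8. Both cell types depend on the transcription factor Gata2, make histamine through Hdc and are known sources of the cytokine Il4.

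The genes of the rule lie on several chromosomes of GRCm38 in the GENCODE M21 annotation, and each is annotated as protein coding. Cma1 at chr14:55941451-55944675, Mcpt4 at chr14:56059629-56062313 and Mcpt8 at chr14:56082166-56085273 lie on the same strand of chromosome 14. Tpsb2 lies at chr17:25366305-25369098, Cpa3 at chr3:20215620-20242181, Ms4a2 at chr19:11615523-11623719 and Fcer1a at chr1:173221284-173227214. The promoter bases of 4 rule genes that mast cells of all 3 libraries held are printed because Gata factors, with a core motif GATAA, act in both cell types. The sequences are RefSeq's for GRCm38.p6 and hold the 250 bases before the annotated start, 5′ to 3′ on the strand of the gene (minus in each case), with GATAA or its complement TTATC in capitals. They span chr3:20242182-20242431, chr14:56062311-56062560, chr14:55944676-55944925 and chr19:11623720-11623969 in the order printed.
Cpa3: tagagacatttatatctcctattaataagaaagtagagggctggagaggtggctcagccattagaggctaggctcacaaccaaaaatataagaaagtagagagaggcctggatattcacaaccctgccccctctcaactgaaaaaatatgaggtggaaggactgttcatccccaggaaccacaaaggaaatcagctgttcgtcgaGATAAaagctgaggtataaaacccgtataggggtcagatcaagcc
Mcpt4: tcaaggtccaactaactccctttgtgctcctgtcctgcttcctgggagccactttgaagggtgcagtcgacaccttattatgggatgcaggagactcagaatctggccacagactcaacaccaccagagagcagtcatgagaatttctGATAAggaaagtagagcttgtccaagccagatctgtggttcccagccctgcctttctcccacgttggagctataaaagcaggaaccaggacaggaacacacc
Cma1: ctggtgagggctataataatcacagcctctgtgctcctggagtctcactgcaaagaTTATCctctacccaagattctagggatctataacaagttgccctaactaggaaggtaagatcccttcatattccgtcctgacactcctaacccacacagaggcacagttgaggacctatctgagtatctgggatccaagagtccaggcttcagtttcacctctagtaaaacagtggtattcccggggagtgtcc
Ms4a2: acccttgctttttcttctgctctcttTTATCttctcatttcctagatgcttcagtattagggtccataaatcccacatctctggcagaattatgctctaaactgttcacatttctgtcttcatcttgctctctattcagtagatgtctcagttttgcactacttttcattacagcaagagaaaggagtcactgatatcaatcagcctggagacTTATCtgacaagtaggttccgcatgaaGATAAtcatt
The 5 letters were found once in the windows of Cpa3, Mcpt4 and Cma1, 45, 102 and 194 bases before the start. The Ms4a2 window held 3 matches, at 224, 37 and 10 bases before the start. Of the 6 rule genes matched in the table, 5 held the letters on either strand, Mcpt8 did not, and 22.6% of all 32851 promoter windows of the same length did. A match is a description of the letters and was not tied to binding by any measurement here.

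Sham, D2 and D7 held 7451, 11473 and 11211 kept cells with a median of 4140, 7056 and 6864 UMIs. Pairs of libraries shared 21 to 29 cell barcodes, and none of these belonged to a member. Mast cells had a median of 3195, 4221 and 4136 UMIs and basophils 5507, 6101 and 3859 UMIs in Sham, D2 and D7. Levels are given as UMIs summed over the cells of a type in a library, scaled to the sum of all their UMIs (CPM), and 95% intervals are exact and cover counting error only. Cells of a library share that library, so the intervals are too narrow for a statement about mice.

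The values that chose the members separated the types with little overlap. The sum of Mcpt4, Cma1 and Tpsb2 ranged over 4 to 799 UMIs in Sham mast cells, 72 to 550 in D2 mast cells and 2 to 728 in D7 mast cells, with medians of 154, 308 and 209 UMIs. All 23 basophils had 0 UMIs of these genes. Basophils had 1 to 11, 1 to 13 and 1 to 3 Mcpt8 UMIs in Sham, D2 and D7, so the basophil call rested on few molecules, and 6 of the 23 had a single Mcpt8 UMI. Just outside the rule, 91, 28 and 53 cells of Sham, D2 and D7 had a UMI of only 1 of the 7 genes, with at most 5 UMIs of it. A further 7, 1 and 6 cells had 2 or more of the genes but more than 1 UMI of Csf1r, Cd3e, Cd79a or Col1a2. Of these, 2 Sham cells and 1 D7 cell had over 50 UMIs of the rule genes (up to 367 and 728), and they are left out of all values below unless stated.

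**Figure D1:**
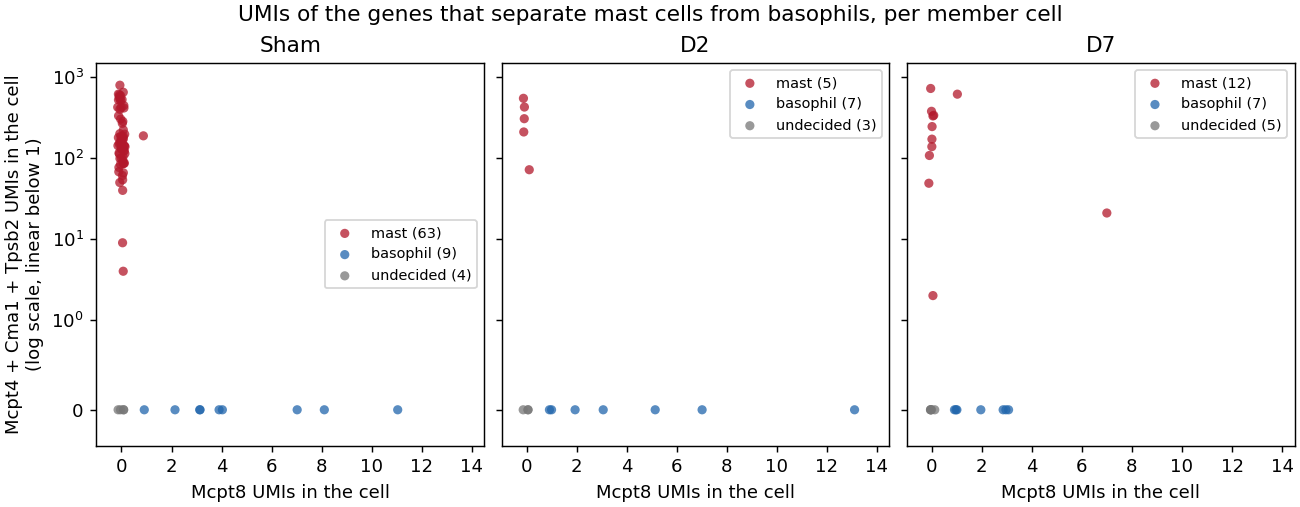
UMIs of Mcpt4, Cma1 and Tpsb2 together (vertical, log scale that is linear below 1) against UMIs of Mcpt8 (horizontal, moved slightly sideways so that points do not hide each other) in each member cell, 1 panel per library. Mast cells stand at the left with up to 799 UMIs, basophils lie along the bottom with 1 to 13 Mcpt8 UMIs, and 1 D7 mast cell had 21 mast protease UMIs beside 7 Mcpt8 UMIs.

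The names were set against 6 genes per type that the rule did not use, and mostly held. Of 6 other mast genes (Kit, Mrgprb1, Mrgprb2, Tpsab1, Maob, Cyp11a1), at least 2 were detected in 62 of 63 Sham, 5 of 5 D2 and 11 of 12 D7 mast cells, and in 0 of 9, 0 of 7 and 1 of 7 basophils. Of 6 other basophil genes (Cd200r3, Itga2, Il6, Il3ra, Csf2rb, Cebpa), at least 2 were detected in 29 of 63, 3 of 5 and 7 of 12 mast cells and in all 23 basophils. The first set was thus rarely detected in basophils, while the second was also detected in many mast cells. Further genes had been listed as markers but were not among the 6 of either type. Of these, Mitf, Hpgds, Ifitm1, Ccl3 and Il4 followed the names, and Gata2 and Hdc were listed for both types. Prss34, listed for basophils, was higher in mast cells of every library. Slc18a2 and Cd63, listed for mast cells, were higher in mast cells of D2 and D7 but not of Sham. Kit, the stem cell factor receptor, had 2654, 2130.5 and 1912 CPM in Sham, D2 and D7 mast cells, 0, 0 and 30.5 CPM in basophils and 15, 20.8 and 13.4 CPM in the rest of the cells. Exceptions included 1 Sham and 1 D7 mast cell with no Kit and no Cpa3 UMI. The Sham cell had 4 UMIs of Mcpt4, Cma1 and Tpsb2 together among 10702 UMIs, beside 653 UMIs of a 10-gene neutrophil list, and the D7 cell had 2 among 2272 UMIs. By the 6 genes per type, 1 Sham and 1 D7 mast cell had more basophil than mast genes detected. This D7 cell was a different one from the D7 cell without Kit and Cpa3. It had 15 Kit, 39 Cpa3, 7 Mcpt8 and 7 Csf2rb UMIs and 0 of Mcpt4, Tpsb2, Mrgprb1, Mrgprb2, Tpsab1 and Maob.

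Mast cells made up a smaller share of all kept cells in the injured libraries. Mast cells were 63 of 7451 cells in Sham (0.846%, 95% Clopper-Pearson interval 0.650 to 1.08), 5 of 11473 in D2 (0.0436%, 0.0142 to 0.102) and 12 of 11211 in D7 (0.107%, 0.0553 to 0.187). The D2 share was 19.4-fold lower than the Sham share (7.89 to 61.8) and the D7 share 7.90-fold lower (4.22 to 16.1). The D7 share was 2.46 times the D2 share, with an interval of 0.805 to 8.90 that includes equal shares. Basophils were 9, 7 and 7 cells, or 0.121% (0.0552 to 0.229), 0.0610% (0.0245 to 0.126) and 0.0624% (0.0251 to 0.129). Their D2 share was 0.505 times the Sham share (0.160 to 1.52) and their D7 share 0.517 times (0.164 to 1.56), so with all kept cells as the denominator no difference was detectable at these cell numbers. Undecided cells were 4, 3 and 5 cells.

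A share falls when other cells are added, and the number of cells per artery was not measured. Of cells with a UMI of Ptprc, the pan-leukocyte gene, mast cells were 46 of 2395 in Sham (1.92%, 1.41 to 2.55), 4 of 10701 in D2 (0.0374%, 0.0102 to 0.0957) and 6 of 6992 in D7 (0.0858%, 0.0315 to 0.187). Basophils were 5 of 2395 in Sham (0.209%, 0.0678 to 0.487), 5 of 10701 in D2 (0.0467%, 0.0152 to 0.109) and 3 of 6992 in D7 (0.0429%, 0.00885 to 0.125). Of these leukocytes, the D2 share of basophils was 0.224 times the Sham share (0.0515 to 0.972). Set instead against the other kept cells without a Ptprc UMI (5034 in Sham, 769 in D2 and 4207 in D7), mast cells were 1.25, 0.650 and 0.285 per 100 such cells. On that scale the D2 value was 1.92-fold lower than the Sham value (interval 0.783 to 6.13, which includes no difference) and the D7 value 4.39-fold lower (2.34 to 8.94). Basophils were 0.179, 0.910 and 0.166 per 100 such cells, 5.09 times as many in D2 as in Sham (1.61 to 15.4). The D2 differences thus depended on the denominator, and the direction for basophils turned with it. These denominators were added after the data were seen. Fewer mast cells in the artery, more of other cells, and mast cells lost in isolation or sorting cannot be told apart here. Of the members called either way, mast cells were 87.5% in Sham (77.6 to 94.1), 41.7% in D2 (15.2 to 72.3) and 63.2% in D7 (38.4 to 83.7).

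**Figure D2:**
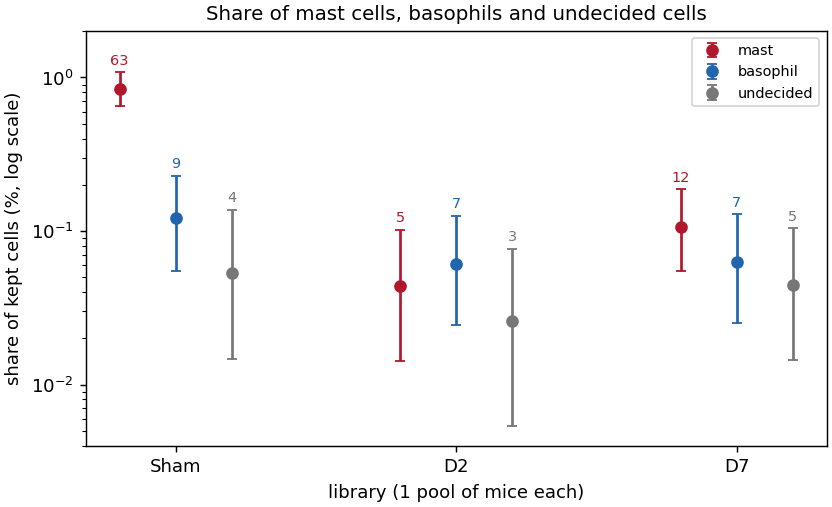
Share of kept cells (vertical, percent on a log scale) called mast cell, basophil or undecided in each library (horizontal), with exact 95% binomial intervals and the number of cells above each. The mast share was 0.846% in Sham, 0.0436% in D2 and 0.107% in D7, while the basophil intervals of the 3 libraries overlap.

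Granule proteases were abundant in mast cells of every library, and their mix differed between libraries. Mcpt4 had 27648 (26989 to 28318) CPM in Sham, 12186 (10815 to 13684) in D2 and 18688 (17493 to 19944) in D7 mast cells. Cma1 had 18815 (18272 to 19369), 33789 (31478 to 36225) and 33039 (31443 to 34694) CPM. The ratio of D7 to Sham was 0.676, with a 95% interval of 0.630 to 0.725, for Mcpt4. It was 1.76, with a 95% interval of 1.66 to 1.86, for Cma1, so the chymases differed in opposite directions. Tpsb2 had 14032, 20921 and 12747 CPM and Cpa3 19336, 15936 and 14021 CPM in Sham, D2 and D7. These 4 genes were used by the rule, which sets no ratio among them.

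The chymase mix was also seen cell by cell. Cma1 UMIs were 25.1% to 76.9% of the Cma1 and Mcpt4 UMIs in the 61 Sham mast cells with at least 10 such UMIs (median 45.9%). They were 61.3% to 98.0% in the 5 D2 mast cells (median 75.6%) and 50% to 100% in the 11 D7 mast cells (median 64.9%). Cma1 outnumbered Mcpt4 in 18 of 61 mast cells of Sham (29.5%, 18.5 to 42.6). It did so in 5 of 5 in D2 (100%, 47.8 to 100) and in 10 of 11 in D7 (90.9%, 58.7 to 99.8). The ranges overlap, and every one of these D2 and D7 cells lay above the Sham median. The 5 D2 cells had 157, 77, 5, 10 and 37 Mcpt4 UMIs and, in the same cells, 249, 154, 240, 31 and 119 Cma1 UMIs. Over all cells, Tpsb2 was 33.7% of the Tpsb2 and Mcpt4 UMIs in Sham, 63.2% in D2 and 40.5% in D7. Chymases are near-identical in parts, as are tryptases, and how reads matching several of them were counted is not given in the sources used here.

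**Figure D3:**
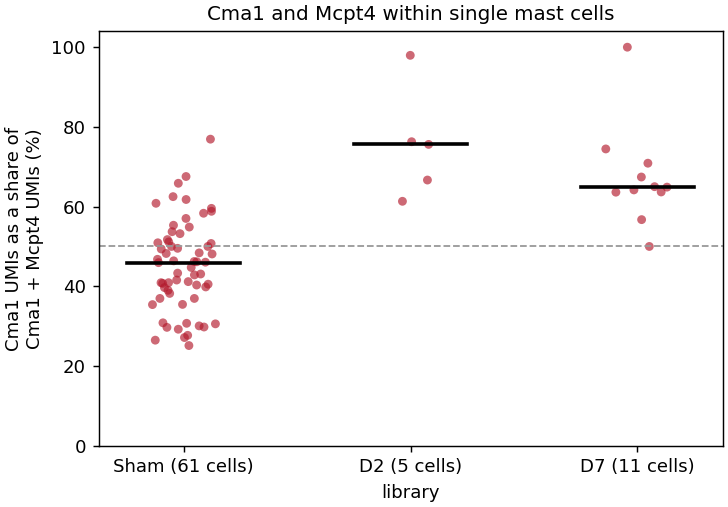
Cma1 UMIs as a percent of Cma1 and Mcpt4 UMIs (vertical) in each mast cell with at least 10 such UMIs, by library (horizontal); the black line is the median and the dashed line marks equal numbers. Medians were 45.9% in Sham, 75.6% in D2 and 64.9% in D7, and 18 of 61, 5 of 5 and 10 of 11 cells lay above the dashed line.

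Genes apart between the types were described with a size rule, since this contrast chose the members. A gene was apart when its ratio of (CPM + 10) was at least 2 in the same direction in all 3 libraries, among genes with at least 100 CPM, 10 UMIs and a UMI in 25% of cells in 1 of the types. Of 2215 such genes, 300 (13.5%) were higher in mast cells and 237 (10.7%) were lower in mast cells than in basophils. A gene that passed the filter through the type where it is high tends to differ, so these shares support nothing about a list. Each list count of mast cells against basophils below stands beside these 13.5% and 10.7% of all genes and describes the list only. Of 15 listed proteases and protease partners, 11 passed, 8 were higher in mast cells and 1 was lower. Tpsab1 had 273, 852 and 391 CPM in Sham, D2 and D7 mast cells and Tpsg1, a membrane-bound tryptase, 269, 170.4 and 103 CPM, and neither had a UMI in basophils. Serpinb1a, an inhibitor of neutrophil-type serine proteases, had 2435, 2003 and 2179 CPM in mast cells and 286, 496 and 0 CPM in basophils.

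Prss34, known in the mouse as a protease of basophils, was higher in mast cells here. It had 413, 511 and 1089.6 CPM in Sham, D2 and D7 mast cells and 20.5, 142 and 91.6 CPM in basophils. It was detected in 23, 1 and 5 mast cells and in 1 basophil of each library. Mast cells held 93.5%, 66.7% and 89.8% of the Prss34 UMIs of the 3 libraries. The D2 value rests on 12 UMIs in 1 cell.

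Of 10 genes of granule assembly that passed, out of 15 listed, 5 were higher in mast cells (Ndst2, Ext1, Hs6st2, Lamp1 and Rab27b) and 1 was lower (Rab27a). Hs6st2, which adds 6-O-sulfate to heparan chains, had 2158, 1150.5 and 1871 CPM in Sham, D2 and D7 mast cells and 0 UMIs in basophils. Ext1, which extends heparan chains, had 4212, 1789.6 and 2878 CPM in mast cells and 0, 0 and 91.6 in basophils. Rab27b, a GTPase of granule transport, had 996, 1193 and 1007 CPM in mast cells and 0, 0 and 30.5 in basophils, while its relative Rab27a had 20.7, 0 and 20.6 CPM in mast cells and 123, 118 and 91.6 in basophils. Hs3st1, which adds 3-O-sulfate to heparan chains, had no single direction, with 66.1, 298 and 370.1 CPM in mast cells and 429.6, 378 and 91.6 in basophils. Srgn, the core protein on which the chains are built, was abundant in both, with 4051, 6349 and 4029.6 CPM in mast cells and 10556, 6259 and 7482 in basophils.

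Amine genes were shared in part. Hdc, the enzyme that makes histamine, had 3245, 1875 and 2035 CPM in Sham, D2 and D7 mast cells and 5258, 2315 and 3512 in basophils, but it was not particular to the members, with 39.5, 403 and 136 CPM in the rest of the cells. Tph1, the first enzyme of serotonin synthesis, had 496, 809.6 and 535 CPM in mast cells and 0 UMIs in basophils. Maob, which degrades amines, had 244, 256 and 370.1 CPM in mast cells and 0 UMIs in basophils. Slc18a2, which loads amines into granules, had 955, 937 and 987 CPM in mast cells and 1105, 449 and 183 in basophils. Among lipid mediator genes, Hpgds, which makes prostaglandin D, had 517, 341 and 432 CPM in mast cells and 0 UMIs in basophils. Alox5ap, needed for leukotriene synthesis, lay the other way with 116, 639 and 206 CPM in mast cells and 1555, 2008 and 2107 in basophils.

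Of 7 surface receptors of the Mrgpr list that passed, out of 15 listed, 4 were higher in mast cells and 2 lower. Mrgprb1 had 2311, 2769.6 and 1686 CPM and Mrgprb2, the receptor through which cationic peptides and drugs activate mouse mast cells, 608, 597 and 473 CPM in Sham, D2 and D7 mast cells, with 0 UMIs in basophils. Against a floor of 3 counts, Mrgprb1 was at least 37.6-fold, 39.1-fold and 18.4-fold higher in mast cells than in basophils of Sham, D2 and D7. Il1rl1, the IL-33 receptor chain ST2, had 1740.1, 3835 and 2364 CPM in mast cells and 143, 118 and 30.5 in basophils. Of 12 growth factor and cytokine receptors that passed, out of 20 listed, 3 were higher in mast cells and 5 lower. Csf2rb, the common beta chain of receptors of the IL-3 family, had 215, 341 and 391 CPM in mast cells and 818, 1016 and 825 in basophils, and Il18rap 4.13, 128 and 103 CPM in mast cells and 511, 803 and 549.7 in basophils. Of the Il18rap UMIs in mast cells, all 3 in D2 and all 5 in D7 lay in 1 cell of each library. The partner chain Il18r1 was not apart, with 78.5, 256 and 206 CPM in mast cells and 593, 449 and 305 in basophils. The complement receptor C5ar1 had 8.27, 469 and 123 CPM in mast cells and 716, 661 and 733 in basophils, and the tetraspanin Cd9 49.6, 383 and 308 CPM in mast cells and 2475, 1748 and 1802 in basophils. All 11 C5ar1 and all 9 Cd9 UMIs of D2 mast cells lay in the cell that held 189 neutrophil-list UMIs. In D7 mast cells, all 6 C5ar1 UMIs lay in the cell without Kit and Cpa3, and 10 of 15 Cd9 UMIs in another cell. The part of other cell types in these mast levels was not tested.

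Genes of signalling downstream of the IgE receptor were counted in the same way. Of 21 listed genes, 16 passed, none was higher in mast cells in all 3 libraries and 1 was lower. Of all genes that passed, 13.5% were higher and 10.7% lower. Within single libraries, 4 of the 16 were at least 2-fold higher and 1 lower in Sham, 3 and 5 in D2, and 4 and 4 in D7. Fcer1g, the signalling chain, had 2339, 2045 and 1912 CPM in Sham, D2 and D7 mast cells and 1698, 1772 and 1588 in basophils. Fcer1a, used by the rule, had 868, 2727 and 1645 CPM in mast cells and 491, 283 and 214 in basophils. Lilrb4a, an inhibitory receptor, had 426, 298 and 329 CPM in mast cells and 1125, 1063 and 1129.9 in basophils, and Cd200r3, an activating receptor, 306, 469 and 411 CPM in mast cells and 593, 709 and 366 in basophils.

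Of 7 chemokines that passed, out of 13 listed, 2 were higher in mast cells and 4 lower, beside 13.5% and 10.7% of all genes. Basophils held Ccl3, Ccl4, Ccl6 and Ccl9, which draw monocytes and other leukocytes, and mast cells held Ccl2 and Ccl7, which draw monocytes through Ccr2. Ccl4 had 20.7, 42.6 and 20.6 CPM in Sham, D2 and D7 mast cells and 17409.6, 14196 and 26751 in basophils. Ccl3 had 0, 213 and 123 CPM in mast cells and 8674, 8102 and 8764 in basophils, Ccl6 45.5, 0 and 41.1 CPM in mast cells and 3948, 3094 and 5130.4 in basophils, and Ccl9 0, 0 and 41.1 CPM in mast cells and 3048, 3472 and 2199 in basophils. All 23 basophils had a UMI of Ccl3, Ccl4 and Ccl9. Ccl2 had 2740.4, 1832 and 2159 CPM in mast cells and 0 UMIs in basophils. Ccl7 had 967, 1023 and 4112 CPM in mast cells and 0, 23.6 and 0 in basophils. On chromosome 11 of GRCm38, Ccl2 (chr11:82035571-82037453) neighbours Ccl7 (chr11:82045712-82047525), and Ccl9 (chr11:83572919-83578636), Ccl6 (chr11:83587882-83593087), Ccl3 (chr11:83647844-83649355) and Ccl4 (chr11:83662584-83664683) lie close to each other.

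The cytokine genes that were apart lay on the basophil side. Of 20 listed, 10 passed, 5 were lower in mast cells than in basophils and none was higher in all 3 libraries. Over all genes that passed, 10.7% were lower and 13.5% higher, and the count supports nothing about the list. Il6 had 20.7, 0 and 20.6 CPM in Sham, D2 and D7 mast cells and 3887, 3638 and 2290.4 in basophils, and 22 of 23 basophils had a UMI of it. Csf1, the macrophage growth factor, had 74.4, 256 and 185 CPM in mast cells and 1841, 898 and 1344 in basophils, and Osm, a cytokine of the IL-6 family, 82.7, 0 and 0 CPM in mast cells and 859, 1063 and 1038 in basophils. Hgf, hepatocyte growth factor, had 33.1, 85.2 and 41.1 CPM in mast cells and 634, 992 and 1802 in basophils. Tnf had no single direction, with 376, 128 and 308 CPM in mast cells and 81.8, 307 and 0 in basophils over Sham, D2 and D7. In D7 mast cells, 8 Tnf UMIs lay in the cell without Kit and Cpa3 and at most 3 in any other. In D2, 1 basophil held 7 Tnf UMIs and each of the others at most 3. Il1b had 5319, 4039 and 4703 CPM in basophils and 528, 4709 and 2485 in the rest of the cells, so at D2 the basophil level was no higher than that of all other cells together.

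Of 12 transcription factors that passed, out of 16 listed, 2 were higher in mast cells and 3 lower, beside 13.5% and 10.7% of all genes. Gata2 had 620.0, 469 and 555 CPM in Sham, D2 and D7 mast cells and 2169, 1087 and 977 in basophils. Mitf, needed for mast cell development, had 554, 554 and 432 CPM in mast cells and 20.5, 0 and 0 in basophils, and Meis2 889, 554 and 1234 CPM with 0 UMIs in basophils. Cebpa, which favours the basophil fate over the mast cell fate in mouse progenitors, had 4.13, 0 and 0 CPM in mast cells and 225, 307 and 122 in basophils. The 12 genes furthest on the mast side were Cma1, Tpsb2, Mcpt4, Ccl2, Mrgprb1, Hs6st2, Lsamp, Dnm3, Meis2, Sgcd, Tph1 and Mrgprb2. The 12 furthest on the basophil side were Ccl4, Il6, Ccl6, Ccl9, Aqp9, Ccl3, Klf5, Cdh1, Tbc1d4, Cyp4f18, Plp2 and Csrp3. Cdh1, the adhesion protein E-cadherin, had 511, 354 and 275 CPM in basophils and 0 UMIs in mast cells, and Aqp9, a water and glycerol channel, 450.1, 378 and 397 CPM and 0 UMIs. Lsamp, a neuronal adhesion protein, had 1145, 895 and 1028 CPM in mast cells and Sgcd, a muscle membrane protein, 1744, 554 and 802 CPM, with 0 UMIs of either in basophils.

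**Figure D4:**
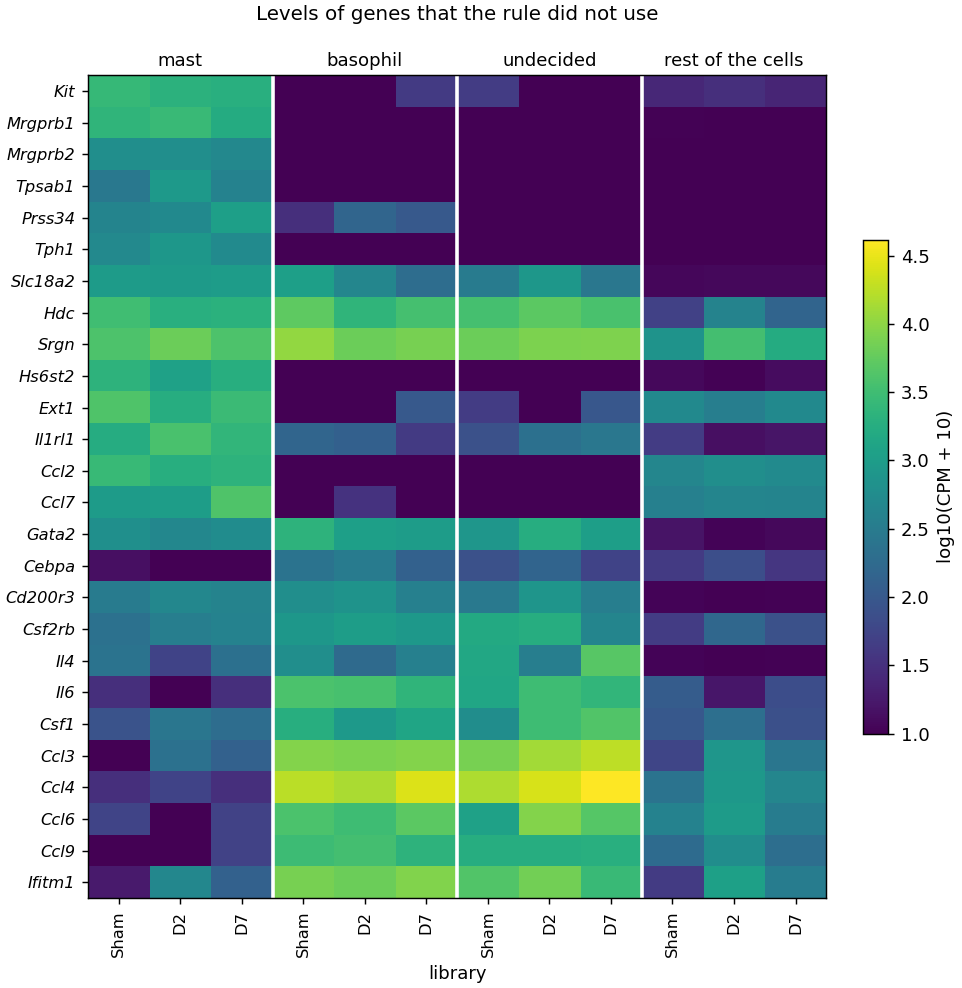
Level of 26 genes that the rule did not use (rows) in mast cells, basophils, undecided cells and the rest of the cells of each library (columns), as log10 of (CPM + 10). Kit, Mrgprb1, Mrgprb2, Tph1 and Hs6st2 are bright in mast cells, Ccl3, Ccl4, Ccl6, Ccl9, Il6 and Ifitm1 in basophils, and the undecided columns are high for Ccl3, Ccl4 and Il6.

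The 12 undecided cells, which had 0 UMIs of Mcpt4, Cma1, Tpsb2 and Mcpt8, were compared with the other members on genes that the rule did not use. Of the 6 basophil genes, at least 2 were detected in 3 of 4 Sham, 3 of 3 D2 and 4 of 5 D7 undecided cells, and of the 6 mast genes in none. The basophil genes were also detected in 29 of 63 Sham mast cells, as given above. Il6 had 1378, 3142 and 2385 CPM, Ccl3 7474, 12977 and 18042 CPM and Gata2 792, 1776 and 1041 CPM in Sham, D2 and D7 undecided cells. Kit had a UMI in 1 of the 12, a Sham cell of 12260 UMIs without Hdc, Gata2 or Il6. They were called by no marker gene and were kept apart. Il4 had 1447, 342 and 4814 CPM in undecided cells, 593, 165 and 366 in basophils and 227, 42.6 and 206 in mast cells. The D7 value of 4814 CPM came mainly from 1 cell with 108 of the 111 UMIs, and without it the undecided level was 150.2 CPM.

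The rare members held large shares of some transcripts of the artery. Mast cells, 0.846% of Sham cells, held 96.7% of the Mrgprb1 UMIs of that library, 95.2% of Tph1 and 52.4% of Kit. In D2 and D7 they held 2.40% and 6.52% of Kit. Those libraries held 5 and 12 mast cells, against 63 in Sham, and their other cells had 2037 and 1333 Kit UMIs. For Il1rl1 the mast share was 24.4% of 1726 UMIs in Sham, 18.9% of 476 in D2 and 15.7% of 733 in D7. Basophils held at most 1.05% of Il1rl1 in any library. Of Il4 UMIs, members together held 77.8% of 162 in Sham, 72.2% of 18 in D2 and 73.1% of 182 in D7, the last mostly the 1 cell named above. Of Il6 UMIs, basophils and undecided cells held 5.49% of 4190 in Sham, 24.4% of 818 in D2 and 2.04% of 6359 in D7. Of Hdc UMIs, members held 42.7% in Sham, 0.547% in D2 and 2.17% in D7.

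Detection was compared after thinning each cell to 1000 UMIs, which left out 2 Sham and 1 D7 mast cell and 1 D7 basophil. B cells, taken as kept cells with at least 3 Cd79a UMIs and at most 1 UMI each of Csf1r, Cd3e and Col1a2, served as a type that should lack these genes. Il1rl1 was then detected in 51 of 61 Sham, 5 of 5 D2 and 7 of 11 D7 mast cells, and in 1 of 271, 0 of 356 and 0 of 673 B cells. Il6 was detected in 6 of 9, 7 of 7 and 4 of 6 basophils, in 1 of 61, 0 of 5 and 0 of 11 mast cells, and in 0 of 271, 0 of 356 and 2 of 673 B cells. Hdc was detected in 55 of 61, 3 of 5 and 10 of 11 mast cells, in 9 of 9, 7 of 7 and 6 of 6 basophils, and in 2 of 271, 15 of 356 and 13 of 673 B cells. Before thinning, Il1rl1 had a UMI in 96.8%, 100% and 91.7% of mast cells and Il6 in 88.9%, 100% and 100% of basophils. The thinned shares of Il1rl1 in mast cells, Il6 in basophils and Hdc in both types were far above those in B cells. The share of Il6 in mast cells was not. B cells had median depths of 4203, 4695 and 3622 UMIs in Sham, D2 and D7.

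Mast cells of D7 were set against those of Sham gene by gene, 12 cells against 63. Of 1778 genes that passed the filter in either library, 93 (5.23%) were at least 2-fold higher and 209 (11.8%) at least 2-fold lower in D7, on the ratio of (CPM + 10). Counting error alone was wide at these depths, with 81 of the 93 and 105 of the 209 ratios having a 95% interval that leaves out equal levels. In 31 of the 93 genes, 1 D7 cell held over 50% of the UMIs. Leaving out the mast cells with under 0.5% of their UMIs on Mcpt4, Cma1 and Tpsb2 (1 Sham and 2 D7 cells, chosen after the values were seen), 49 genes were higher and 234 lower, of which 39 and 163 were among those first counted. The median log2 ratio of all genes that passed was -0.11, and -0.15 without those cells.

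Among mast cell products, Ccl7 was higher in D7. It had 4112 (3562 to 4723) CPM in D7 mast cells and 967 (847 to 1099) in Sham mast cells, a ratio of 4.25 (95% interval 3.50 to 5.16). D2 mast cells had 1023 CPM. It was detected in 8 of 12 D7, 4 of 5 D2 and 30 of 63 Sham mast cells, with at most 57 of 200 UMIs in 1 D7 cell. Its neighbour Ccl2 had no such ratio, at 0.788 (95% interval 0.635 to 0.969). In the rest of the cells Ccl7 had 366, 437 and 419.6 CPM in Sham, D2 and D7. Cd63, a granule membrane protein, had a ratio of 2.17 (95% interval 1.72 to 2.72) and Fcer1a of 1.89 (95% interval 1.45 to 2.46). Prss34 had a ratio of 2.64 (95% interval 1.85 to 3.71), with 28 of 53 UMIs in 1 D7 cell. Ctla2a, a cathepsin inhibitor, had 74.4, 3366 and 863 CPM in Sham, D2 and D7 mast cells and a UMI in 9, 5 and 6 of them. In D7, 1 cell had 25 Ctla2a UMIs and each of the others at most 7.

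Other high ratios came from single cells. Gzmb, a granzyme, had 1933 CPM in D7 mast cells and 45.5 in Sham mast cells, but 93 of its 94 D7 UMIs were in 1 cell. That cell had 39 Cpa3, 21 Cma1, 7 Mcpt8, 15 Kit, 14 Gata2 and 19 Hdc UMIs and 0 of Mcpt4, Tpsb2 and Mrgprb1. The same cell held 8 of 10 Slco2b1, 12 of 17 Gpr183, 31 of 41 Ier3 and 29 of 47 Runx1 UMIs. Cxcl2 and Il1b, which draw and activate neutrophils, had 32 of 36 and 26 of 28 UMIs in the D7 cell that lacked Kit and Cpa3. Stmn1 and Top2a, genes of dividing cells, had 14 of 22 and 8 of 8 UMIs in another D7 cell, which also had 207 Cma1 UMIs. Sox5 had 10 UMIs in 3 D7 cells, 8 of them in 1 cell, and 0 in Sham. It was at least 16.6-fold higher against a floor of 3 counts.

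**Figure D5:**
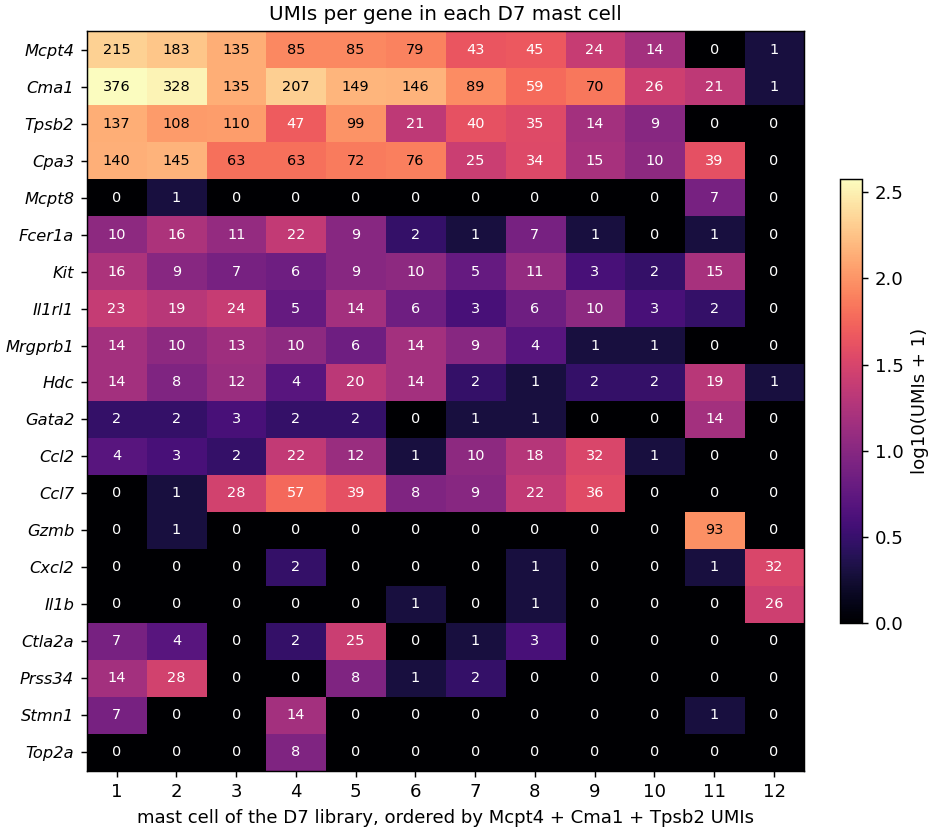
UMIs of 20 genes (rows) in each of the 12 D7 mast cells (columns, ordered by their Mcpt4, Cma1 and Tpsb2 UMIs), with colour as log10 of (UMIs + 1). Cells 1 to 10 hold all of Mcpt4, Cma1, Tpsb2, Cpa3, Kit and Il1rl1, cell 11 holds 93 Gzmb and 7 Mcpt8 UMIs, and cell 12 holds 2 mast protease UMIs with 32 Cxcl2 and 26 Il1b UMIs.

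The 6 genes furthest down in D7 were Pibf1, Pomgnt1, Taf1, Zfp131, Trip11 and Trim30a, none of them from the lists of mast cell products. They had 0 UMIs in D7 mast cells and 27 to 39 UMIs in Sham mast cells. Against a floor of 3 counts Pibf1 was at least 2.61-fold and Trim30a at least 1.81-fold lower in D7. The rest of the cells had 38.0 CPM of Pibf1 in D7 and 49.5 in Sham. Sgcd, named for its difference between the types and in no list, was 2.18-fold lower (1.57 to 3.10) in D7. Among listed genes, Ext1 was 1.46-fold lower (1.23 to 1.76) in D7. Hdc was 1.59-fold lower (1.29 to 1.99) and Dusp1, an early-response phosphatase, 1.65-fold lower (1.23 to 2.25). For Dusp1, 1 D7 mast cell held 30 UMIs and each of the others at most 9. By list, 1 of 9 proteases that passed was higher (Prss34) and 1 lower (Tpsg1, with 5 UMIs in D7 and 65 in Sham). Of 9 granule genes 2 were higher (Cd63 and Hs3st1) and 0 lower, and of 14 IgE-receptor signalling genes 0 were higher and 1 lower (Pilra). Kit had a ratio of 0.721 (95% interval 0.573 to 0.897), Srgn of 0.995 (95% interval 0.849 to 1.16) and Slc18a2 of 1.03 (95% interval 0.741 to 1.42).

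The 5 D2 mast cells were too few for a count of genes. Il1rl1 had 16, 25, 23, 10 and 16 UMIs in them and 3835 (3084 to 4714) CPM in all, 2.20 (95% interval 1.74 to 2.77) times the Sham level. Ctla2a had 4, 35, 31, 5 and 4 UMIs, 45.2 (95% interval 26.9 to 80.2) times the Sham level. Fcer1a had 22, 4, 29, 4 and 5 UMIs, 3.14 (95% interval 2.34 to 4.17) times the Sham level. All 5 cells held each of these genes, as they did Kit, with 10, 9, 14, 5 and 12 UMIs. Cxcl2 and Il1b lay in 1 of the 5, with 55 of 56 and all 14 UMIs, and that cell also held 189 of the 190 UMIs of the neutrophil list. The same cell had only 5 Mcpt4 UMIs beside 240 Cma1 UMIs and 12 Prss34 UMIs.

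Basophil levels were set side by side over the libraries without a count of genes, since no library held 10 basophils. Ccl4 had 17409.6 (16259 to 18619.7), 14196 (13084 to 15378) and 26751 (25009 to 28583) CPM in Sham, D2 and D7. Il6 had 3887 (3354 to 4481), 3638 (3086 to 4259.6) and 2290.4 (1802 to 2871) CPM, and its ratio of D7 to Sham was 0.589 (95% interval 0.445 to 0.774). That ratio rested on 1 cell. A D7 basophil called a doublet, with 44 dendritic-list UMIs, held 13905 of the 32746 UMIs of the type but 2 of its 75 Il6 UMIs. Without it, D7 basophils had 3875 CPM of Il6, a ratio to Sham of 0.997 (95% interval 0.750 to 1.31). The same cell held 36 of 59 Hgf UMIs, and the Hgf ratio was 2.84 (95% interval 1.81 to 4.54) with it and 1.92 (95% interval 1.07 to 3.41) without it. For Gata2 the ratio was 0.451 (95% interval 0.294 to 0.675) with the cell and 0.587 (95% interval 0.361 to 0.922) without it, and for Ccl4 it was 1.54 (95% interval 1.40 to 1.69) with it and 2.15 (95% interval 1.95 to 2.38) without it. The intervals cover counting error only, over 7 D7 and 9 Sham cells. Cxcl2 had 40.9, 2693 and 458 CPM in basophils and 939.6, 7985 and 3519 in the rest of the cells, so the library with the highest basophil level was also the one with the highest level elsewhere.

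Genes of some other cell types lay in few members and those of others were spread. The neutrophil list summed to 2707, 8096 and 370.1 CPM in Sham, D2 and D7 mast cells and to 2241, 10715 and 3122 CPM in the rest, but 653 of 655 Sham UMIs and 189 of 190 D2 UMIs lay in 1 cell each. The macrophage list of 10 genes summed to 2257, 1832 and 1583 CPM in mast cells, over 59 of 63, 4 of 5 and 12 of 12 cells, to 61.4, 709 and 549.7 CPM in basophils and to 5714, 20994 and 8668 CPM in the rest. Most of it was Apoe, a lipid carrier that many cell types make, with 507 of 546 Sham, 40 of 43 D2 and 73 of 77 D7 mast UMIs, and Apoe had 1381, 8736 and 2983 CPM in the rest of the cells. Its complement genes C1qa and C1qc were at 0 in mast cells of all 3 libraries, and Adgre1 and Cd68 in those of D2 and D7. A progenitor list was detected in 48 of 63, 5 of 5 and 8 of 12 mast cells. It summed to 732, 1363.5 and 637 CPM in mast cells and to 1169, 172 and 768 CPM in the rest. Its genes Mpo, Elane and Prtn3 were at 0 in mast cells of all 3 libraries, and Flt3 in those of D2 and D7. In D2 and D7 mast cells only its genes Cd34 and Ly6a had UMIs. The dendritic list gave 120 of its 150 Sham mast UMIs and 44 of its 47 D7 basophil UMIs from 1 cell each. Another D7 mast cell held 22 of 28 dendritic-list and 19 of 23 B cell-list UMIs. A list of group 2 innate lymphoid cells summed to 614, 520 and 763 CPM in Sham, D2 and D7 basophils. In the rest of the cells it summed to 466, 93.9 and 263 CPM. It was detected in 8 of 9, 7 of 7 and 3 of 7 basophils, with 15 of 25 D7 UMIs in 1 cell. In D7 undecided cells, 154 of 156 neutrophil-list UMIs lay in 1 cell, and in D2 basophils 59 of 73. T cell, smooth muscle and endothelial lists summed to at most 189 CPM in either type. Whether free RNA or pairs of cells in a droplet gave these UMIs was not tested.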

How the data were processed

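The authors deposited 1 count matrix per library (UMIs per gene and barcode, whole numbers, not normalized), named Cell Ranger 7.1.0 per the file headers, while Cell Ranger 7.2.0, Seurat 5.0.1 and mm10 are listed in the submitters' processing notes. Alignment settings, and any removal of free RNA before deposit, are not given in the sources used here. No cell annotation was used. Libraries summed to 39756684 (Sham), 98260210 (D2) and 100571340 (D7) UMIs over 7757, 11690 and 11574 barcodes.

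Members were found by the rule given above, and UMIs were summed per type and library and divided by all their UMIs. The members and gene lists were chosen with earlier results of these data known. Groups were not tested against each other, as each was a single pool. Shares have exact Clopper-Pearson intervals, levels exact Poisson intervals and ratios exact conditional binomial intervals, which cover counting error only and treat UMIs as independent. Gene counts used a ratio of (CPM + 10) of at least 2, at least 5 cells of each type, and at least 10 cells per library between libraries.

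Named genes were the 7 rule genes, list genes with at least 50 CPM and 10 UMIs in the type and library described, the 12 genes furthest apart on each side between the types and the 6 furthest apart in each direction between libraries. Other genes named with lower values complete a comparison, and Top2a, Mcpt8 and the like in single cells were singled out after their values were seen. Of 347 listed genes 346 were found. Scrublet in scanpy 1.11.5, with an expected rate of 8%, called 0 doublets in Sham, so it did not work there, and 4.11% in D2 and 2.03% in D7, with 0, 1 and 1 members among them. Called doublets were removed only as an alternative, and cells had been sorted as singlets per the labels. Positions came from GENCODE M21 and promoters from RefSeq. The counting was tested on simulated data. Software was Python 3.11.15, NumPy 2.4.6, SciPy 1.17.1, pandas 2.3.3 and matplotlib 3.10.9. Of 16 alternatives, 10 were planned and 6 were added after seeing the data.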

Additional observations from a re-analysis of the deposited data

How the results depend on the processing

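A share or a ratio was counted as close when it lay within the 95% interval of its first value, a gene count when it lay within 1.5 times, and as reversed when a first log2 ratio of at least 1 in size changed sign. Of 188 recomputed shares, share ratios and gene counts, 177 were close, 11 moved and 0 reversed, and of 992 recomputed gene ratios 914 were close, 73 moved and 5 reversed. With Ptprc-positive cells as the denominator, added after seeing the data, the log2 ratio of mast shares of D7 over Sham was -4.48. With other cells without Ptprc, also added then, that of D2 over Sham was -0.94 for mast cells and 2.35 for basophils, which for basophils is in the opposite direction to the first value. With at least 3 marker genes, the D7 basophil share was 0.0178% and mast cells were 84.6% of the D7 cells called either way, and Hgf reversed to a log2 ratio of -0.17 in D7 over Sham basophils. With no filter on low values, 742 genes were higher in mast cells and 357 in basophils, and 1924 were higher and 2066 lower in D7 than in Sham mast cells, as more genes of few UMIs were counted. With no limit on Csf1r, Cd3e, Cd79a and Col1a2, chosen after seeing the data, 152 genes were higher in D7 mast cells. Without the mast cells under 0.5% mast gene UMIs, also chosen after seeing the data, 49 were higher. There Gzmb, Ier3 and Runx1 reversed, to log2 ratios of -0.73, -0.39 and -0.21, since 1 of the cells left out held most of their UMIs. With a 3-fold margin between the UMI sums, Il1b reversed to -2.21 in D7 over Sham mast cells.

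Leaving out a replicate was not possible with 1 library per group. No paired analysis was possible because each group had 1 library. Gene counts between libraries in basophils could not be made, with 9, 7 and 7 cells. With at least 3 markers, a 3-fold margin, or members rich in other cell types' genes left out, the mast and basophil gene counts could not be made in all 3 libraries for want of 5 cells of each type. Depth limits the D2 mast and all basophil levels, which rest on 23469 UMIs in D2 mast cells and on 48881, 42336 and 32746 UMIs in Sham, D2 and D7 basophils.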

Other observations

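Of 13829 genes with at least 20 UMIs in the Sham library, 17 had at least 80% of them in the 63 mast cells, a limit chosen after the values were seen, and 5 of the 17 were rule genes. Beside the proteases and Mrgpr receptors, these included genes with other known roles. Cntn4, a neuronal adhesion protein, had 93.7% of 252 UMIs in mast cells, and Krt4, an epithelial keratin, 94% of 50. Smpx, a small muscle protein, had 86.2% of 29 and Hs6st2 88.3% of 591. In D7, mast cells held 21.5% of 424 Hs6st2 UMIs and 68.7% of 67 Cntn4 UMIs, and in D2 38.0% of 71 and 11.4% of 35. Other cells thus held most Hs6st2 in both injured libraries, and most Cntn4 in D2.

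Adhesion and trafficking genes, of which 14 of 22 passed, were lower in mast cells than in basophils for 6 and higher for 0. Over all genes that passed, 10.7% were lower in mast cells and 13.5% higher. As given above, such counts support nothing about a list, and this holds for the interferon-induced genes below. Cxcr4, the chemokine receptor that keeps leukocytes in marrow, had 4.13, 128 and 123 CPM in Sham, D2 and D7 mast cells and 757, 354 and 458 in basophils. All 3 Cxcr4 UMIs of D2 mast cells lay in the cell with 189 neutrophil-list UMIs. In D7, the mast cell with 19 B cell-list UMIs and the one with 93 Gzmb UMIs held 3 each and the others 0. Of 3 interferon-induced genes that passed out of 15, 2 were lower in mast cells. Ifitm1, a membrane protein of basophils in the mouse, had 8.27, 469 and 123 CPM in mast cells and 7447, 6401 and 8459 in basophils. In D2 mast cells, 10 Ifitm1 UMIs lay in the cell with 189 neutrophil-list UMIs and 1 in another. In D7 mast cells, 5 lay in the cell with 93 Gzmb UMIs and 1 in another. Il13 had 964, 137 and 260.2 CPM in undecided cells, 225, 118 and 0 in basophils and 95.1, 42.6 and 41.1 in mast cells, with 24 of the Sham undecided UMIs in 1 cell.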
